A study of Ovis aries with 16 samples.

Results

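Chemokines, interleukins and their receptors were followed in the lung of newborn lambs with increased pulmonary blood flow. Members were the genes whose symbol in the platform's probe-to-gene table begins with CCL, CXCL, CCR, CXCR or IL and a number, or with CX3C. The interleukin-1 family genes IL1A, IL1B, IL1RN, IL1R1, IL1R2, IL18 and IL33 were left out. This gave 65 of the 9155 genes measured, each read from the brightest of its probe sets by mean over the 16 arrays. Of these, 40 were ligands (25 chemokines and 15 interleukins) and 25 were receptors (8 for chemokines and 17 for interleukins).

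The arrays came from lambs of 3 days of age, 8 control and 8 shunt. Per the labels' protocols, control fetuses had a sham operation, and in shunt fetuses a Gore-tex graft joined the ascending aorta to the main pulmonary artery before birth. Peripheral lung was taken after spontaneous delivery, and each array was taken as 1 lamb. The graft lets aortic blood enter the lung circulation, as in congenital heart defects that raise pulmonary flow, and control lambs had none. Sheep RNA was hybridized to bovine probes, so a sequence difference can lower a signal, and signal over background was not known.

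Chemokines are small secreted proteins that direct leukocyte movement through G protein-coupled receptors. CC and CXC families are named for the spacing of conserved cysteines, CXC ligands such as CXCL8 mainly recruiting neutrophils and CC ligands such as CCL2 monocytes and other mononuclear cells. Many interleukins, though not all, act through receptors built of a specific chain and a shared chain, and many of these receptors signal through JAK kinases and STAT factors. In lung these ligands come from macrophages, epithelium, endothelium and fibroblasts, and CXCL12 also takes part in vessel growth.

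Arrays were alike, with mean correlations to the other arrays from 0.983 to 0.993, lowest for control replicate 2. The surfactant genes SFTPB and SFTPC, expressed by alveolar type 2 cells, were at log2 levels of 12.69 ± 0.18 (SD, n = 8) and 13.44 ± 0.15 in control lambs. The median of an array was 7.158 ± 0.016 for control lambs, above the 7.135 ± 0.009 of shunt lambs (exact two-sided permutation p = 0.00078), and the part of this difference in the results was not tested.

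The members were mostly at low signal. Their mean log2 levels ran from 4.12 (IL23R) to 11.95 (CXCL17), with a median of 6.43 against 8.23 over all genes. In the dimmest 25% of genes lay 38 of the 65 members, and 2, the mucosal chemokine CXCL17 and the receptor chain IL13RA1, lay in the brightest 25%. Some T cell cytokines were among the lowest, with IL3 at 4.56, IL5 at 4.74, IL21 at 4.76 and IL4 at 5.03. So were the chemokines CXCL13 at 4.32 and CXCL5 at 4.62. Other T cell cytokines were not, with IL13 at 6.31 and IL17A at 7.26. A small difference at low signal does not show that a gene was unchanged.

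No member passed at an adjusted p under 0.05 in limma's moderated test over all genes, where 0.0874% of genes passed, 8 in number. With 1 array left out this number ran from 2 to 64, the latter without shunt replicate 1. The smallest adjusted p among members was 0.201. At an unadjusted p under 0.05 were 12 members (18.5%), against 14.5% of all genes. Of the 40 ligands 7 were at that level (17.5%), 4 higher and 3 lower in shunt. Of the 25 receptors 5 were (20.0%), 3 higher and 2 lower. Over all genes the shares were 6.63% higher and 7.92% lower, and 9.27% and 4.89% with each array centred on its median, where 6 ligands and 4 receptors were higher and 2 ligands and 2 receptors lower. The shares of members were near this background. The median difference was 0.0027 for ligands and -0.04 for receptors on the log2 scale, against -0.01 for all genes. In 0 of 65 members did the groups not overlap, a pattern found in 0.153% of all genes.

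**Figure D1:**
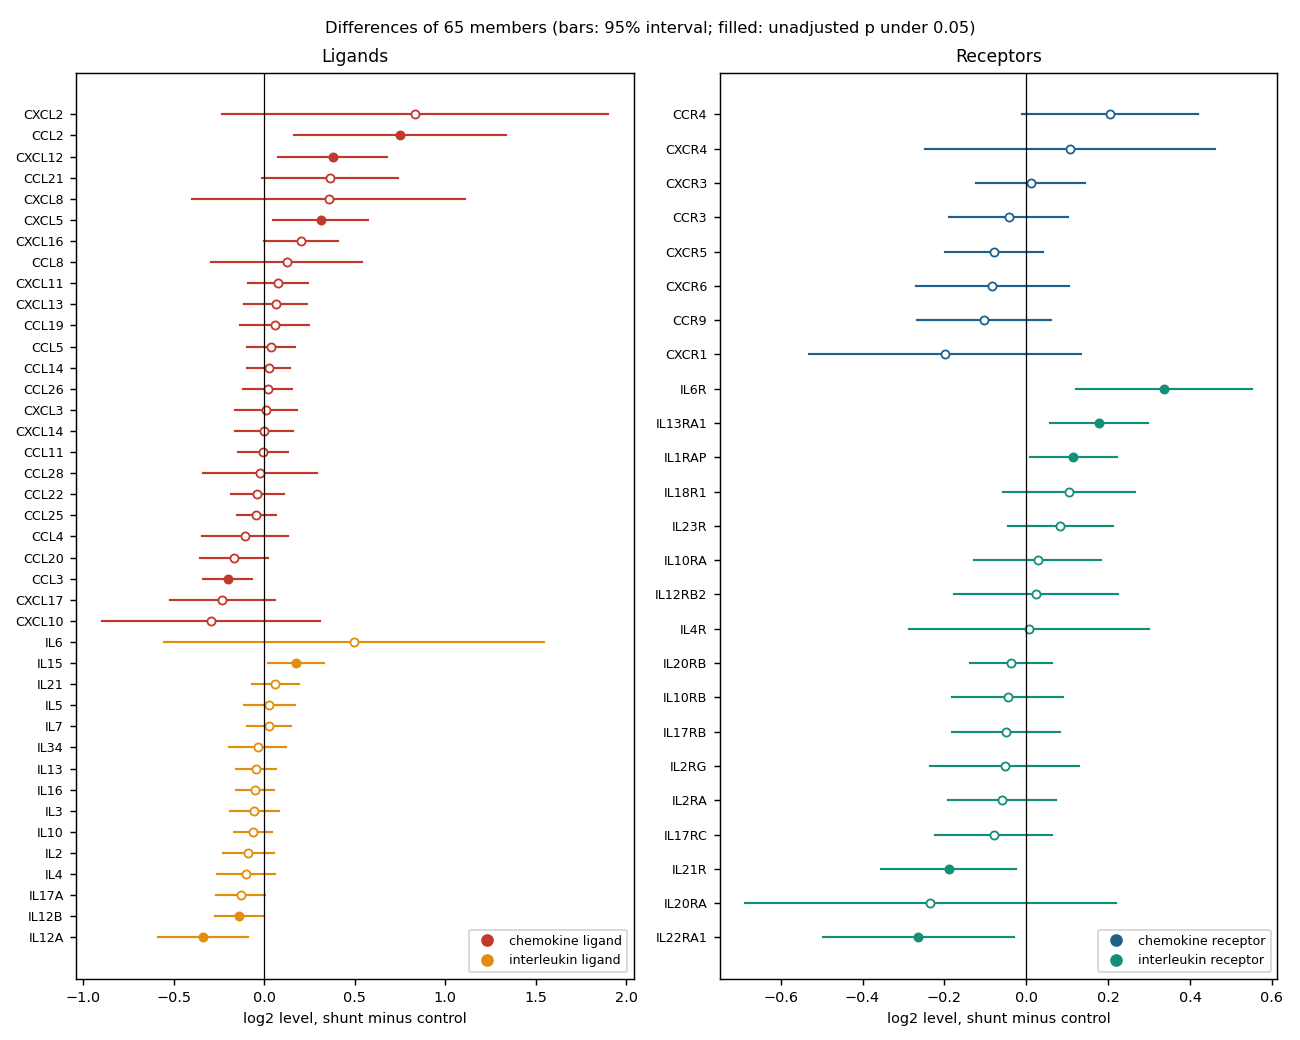
Difference in log2 level, shunt minus control (x axis), for the 40 ligands and 25 receptors, with 95% intervals of the limma fit and filled points for an unadjusted p under 0.05. The widest intervals belong to CXCL2, IL6 and CXCL8, and the 12 filled points lie on both sides of 0.

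Among the CC ligands, CCL2 and CCL3 stood on opposite sides. CCL2, the main monocyte attractant, had control levels with a lowest value of 6.60, a median of 7.97 and a highest of 8.81, and shunt levels of 7.59, 8.76 and 8.96. Shunt lambs lay above the control mean in 7 of 8 cases, and the groups overlapped widely. The difference was 0.75 ± 0.28 (SE), or 1.68-fold, with an adjusted p = 0.253 (limma; unadjusted p = 0.0153). A dimmer probe set of CCL2 differed by 1.03 ± 0.34 and ran in parallel from lamb to lamb (r = 0.967 over the 16 arrays, a description).

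CCL3, also known as macrophage inflammatory protein, had control levels with a lowest value of 8.45, a median of 8.62 and a highest of 8.91, and shunt levels of 8.24, 8.46 and 8.54. All 8 shunt lambs lay below the control mean. The difference was -0.20 ± 0.06 (adjusted p = 0.207, limma). Its other probe sets were at -0.23 ± 0.18 (unadjusted p of 0.223) and -0.11 ± 0.07. CCL4, a close relative that acts on the same receptor, was at -0.11 ± 0.11. CCL21, which draws T cells and dendritic cells into lymphatics and lymph nodes, read 8.69 ± 0.51 (SD, n = 8) in control lambs and 9.05 ± 0.26 in shunt lambs. Its difference of 0.36 ± 0.18 (SE) had an adjusted p = 0.359 (limma), and was 0.23 without control replicate 4. CCL20, an attractant of immature dendritic cells, was at -0.17 ± 0.09. CCL25, an attractant of gut T cells and also among the brightest ligands, read 8.52 ± 0.07 (SD, n = 8) in control lambs against 8.48 ± 0.11, a difference of -0.04 ± 0.05 (SE). The remaining 8 CC ligands, which include the eosinophil attractants CCL11 and CCL26 and the T cell attractants CCL5 and CCL22, had differences from -0.04 to 0.12.

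Among the CXC ligands, CXCL12 and CXCL5 were higher at an unadjusted p. CXCL12, the ligand of CXCR4, had control levels with a lowest value of 7.33, a median of 8.25 and a highest of 8.46, and shunt levels of 8.13, 8.47 and 8.76. Control replicates 3 and 4 were low, at 7.33 and 7.59, while the other 6 control lambs lay between 8.24 and 8.46. The difference was 0.38 ± 0.14 (adjusted p = 0.258, limma), all 8 shunt lambs lying above the control mean, and 0.27 without control replicate 3. Its receptor CXCR4 was 8.45 ± 0.33 (SD, n = 8) for control and 8.56 ± 0.41 for shunt lambs, and differed by 0.11 ± 0.17 (SE), which became -0.01 without shunt replicate 2, the lamb with the highest value (9.39).

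CXCL5, a neutrophil attractant, had control levels with a lowest value of 4.21, a median of 4.43 and a highest of 4.84, and shunt levels of 4.48, 4.72 and 5.27. The difference was 0.31 ± 0.13 (adjusted p = 0.276, limma) at a level in the lowest 2.4% of genes. Without shunt replicate 6, the highest shunt lamb, the unadjusted p was 0.0530. CXCL16, a scavenger receptor and ligand of CXCR6, was at 0.20 ± 0.10 (adjusted p = 0.345), and CXCR6 itself was at -0.08 ± 0.09. A second probe set of CXCL16, almost as bright, was at 0.11 ± 0.12. CXCL17, the brightest member, read 12.07 ± 0.28 (SD, n = 8) in control lambs against 11.84 ± 0.34, which gives -0.23 ± 0.14 (SE). The interferon-induced CXCL10 was at -0.29 ± 0.29 (from -0.49 without shunt replicate 2 to -0.17 without control replicate 7) and CXCL11 at 0.07 ± 0.08, while their receptor CXCR3 was at 0.01 ± 0.06. CXCL3, CXCL13 and CXCL14 had differences from -0.0033 to 0.06.

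**Figure D2:**
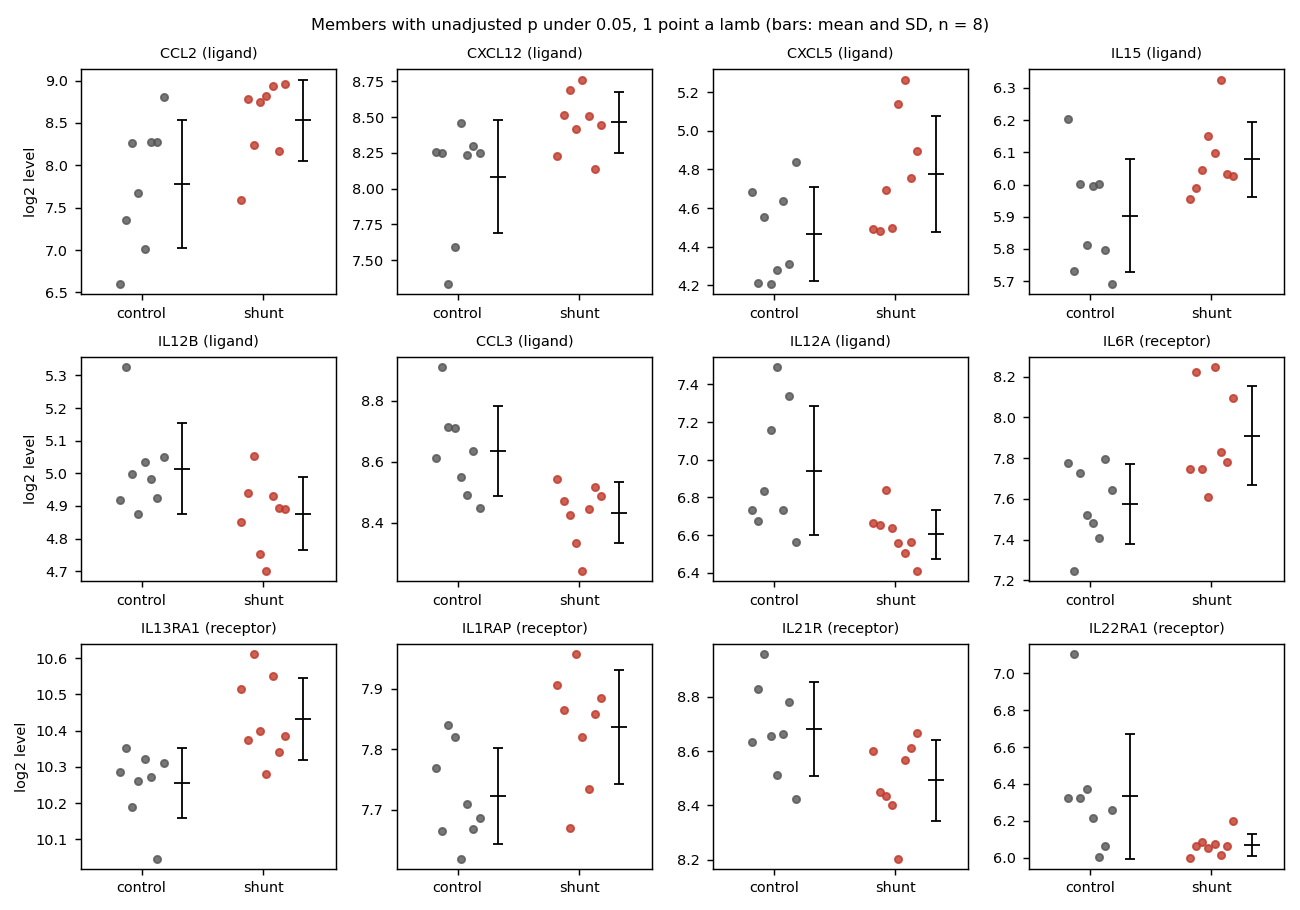
Log2 level of each lamb (y axis, own scale in each panel) for the 12 members with an unadjusted p under 0.05, with the mean and SD of 8 lambs beside the points. The groups overlap in each panel, and control replicate 2 is the single high point of IL22RA1 (7.10) and IL12B (5.33).

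The interleukin ligands held 3 members at an unadjusted p under 0.05. IL12A, the p35 chain that IL-12 and IL-35 share, had control levels with a lowest value of 6.57, a median of 6.78 and a highest of 7.49, and shunt levels of 6.41, 6.60 and 6.84. Control replicates 4, 5 and 7 were high, at 7.16, 7.49 and 7.34. The difference was -0.34 ± 0.12 (adjusted p = 0.241, limma), and all 8 shunt lambs lay below the mean of the controls. IL12B, the other chain of IL-12, was at -0.14 ± 0.06 (adjusted p = 0.338) at a level in the lowest 4.1% of genes, and at -0.09 without control replicate 2. EBI3, the partner of IL12A in IL-35, was at -0.14 ± 0.07 (adjusted p = 0.334, limma), and the receptor chain IL12RB2 was at 0.02 ± 0.10.

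IL15, which supports natural killer cells and memory T cells, had control levels with a lowest value of 5.69, a median of 5.90 and a highest of 6.20, and shunt levels of 5.95, 6.04 and 6.33. All 8 shunt lambs lay above the control mean, but control replicate 1, at 6.20, lay above 7 of them. The difference was 0.17 ± 0.07 (adjusted p = 0.291, limma), with an unadjusted p of 0.0654 without shunt replicate 6. IL17A was at -0.13 ± 0.06 (adjusted p = 0.359), and a second bright probe set was at -0.15 ± 0.06. Control and shunt levels were 6.28 ± 0.10 (SD, n = 8) and 6.22 ± 0.07 for the anti-inflammatory cytokine IL10. They were 8.56 ± 0.09 and 8.51 ± 0.08 for IL16, a ligand of CD4. For IL34, a ligand of the CSF1 receptor, they were 7.30 ± 0.19 and 7.27 ± 0.12. The differences were -0.06 ± 0.05 (SE) for IL10, -0.05 ± 0.05 for IL16 and -0.04 ± 0.08 for IL34. The 95% intervals of these 3 differences ran from -0.17 to 0.04, from -0.16 to 0.06 and from -0.19 to 0.12. Of the other probe sets of IL16, one was at -0.17 ± 0.07 (unadjusted p of 0.0300), outside that interval, and a dim one at 0.0058 ± 0.06.

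Among the receptors, the chain that binds interleukin-6 had the smallest p. IL6R had control levels with a lowest value of 7.24, a median of 7.58 and a highest of 7.79, and shunt levels of 7.61, 7.80 and 8.25. Shunt replicates 2, 5 and 8 were the high ones, at 8.22, 8.25 and 8.10, and the other 5 lay within or close to the control range. The difference was 0.34 ± 0.10, or 1.26-fold, with an adjusted p = 0.201 (limma; unadjusted p = 0.00408). A dimmer probe set of IL6R was at -0.09 ± 0.08 and did not run in parallel (r = -0.217 over the 16 arrays, a description), so the direction depends on the probe set. With its probe sets averaged the difference was 0.12, with an unadjusted p of 0.0814.

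IL13RA1, the chain that joins IL4R to form the receptor of IL-13, was the brightest receptor. Its control levels had a lowest value of 10.05, a median of 10.28 and a highest of 10.35, and its shunt levels were 10.28, 10.39 and 10.61. All 8 shunt lambs lay above the control mean, and 6 of them above the highest control lamb. The difference was 0.18 ± 0.06 (adjusted p = 0.207, limma; exact two-sided permutation p = 0.00218, not adjusted). Its second probe set was at 0.12 ± 0.06. IL4R, at 8.34 ± 0.33 in control and 8.34 ± 0.28 in shunt lambs (SD, n = 8), differed by 0.0068 ± 0.14 (SE), with a 95% interval from -0.29 to 0.30 and no settled sign, since it was -0.03 with array weights. IL1RAP, the accessory chain of the receptors for interleukin-1 and interleukin-33, read 7.72 ± 0.08 (SD, n = 8) in control lambs and 7.84 ± 0.09 in shunt lambs. Its difference of 0.11 ± 0.05 (SE, adjusted p = 0.315, limma) was 0.05 as the mean of its probe sets and 0.04 by the most variable of them, the other 2 being among the dimmest, at 4.33 and 3.96.

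IL21R and IL22RA1 were lower at an unadjusted p. IL21R, the receptor of a T cell cytokine on lymphocytes, had control levels with a lowest value of 8.42, a median of 8.66 and a highest of 8.96, and shunt levels of 8.20, 8.51 and 8.67. The difference was -0.19 ± 0.08 (adjusted p = 0.285, limma), and all 8 shunt lambs lay below the mean of the controls. IL2RG, the common gamma chain that IL21R pairs with, was at -0.05 ± 0.09. IL22RA1, an epithelial receptor chain, had control levels with a lowest value of 6.00, a median of 6.29 and a highest of 7.10, and shunt levels of 6.00, 6.07 and 6.20. The difference was -0.26 ± 0.11 (adjusted p = 0.293), and -0.15 without control replicate 2, which held the highest value. Its partner IL10RB was at -0.05 ± 0.06.

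By chain family, the IL-6 and IL-12 receptors had 3 of 3 members higher in shunt, the IL-10 family 1 of 5, the common gamma family 1 of 4, the IL-17 family 0 of 2 and the IL-1 family 2 of 2. These are signs of the difference, with no test, and over all genes 4109 of 9155 were higher. Some of the signs rest on values near 0, as with IL4R (0.0068 ± 0.14) in the common gamma family and IL12RB2 (0.02 ± 0.10). That of IL6R depends on the probe set, the dimmer one being at -0.09. In the chemokine receptors no member was at an unadjusted p under 0.05, and 3 of 8 were higher. CCR4, found on helper and regulatory T cells, was at 0.21 ± 0.10 (adjusted p = 0.364), and CXCR1, a neutrophil receptor for CXCL8, at -0.20 ± 0.16. The remaining receptors of CC and CXC ligands, CCR3, CCR9 and CXCR5, had differences from -0.10 to -0.04.

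The members that varied most between lambs were IL6 and a few chemokines. CXCL2, a neutrophil attractant, had a pooled within-group SD of 1.15, IL6 of 1.13 and CXCL8 of 0.812, against a median of 0.147 over all genes. CXCL10 (0.649) and CCL2 (0.632) followed, and all 5 were above percentile 99 of the genes. For IL6, control levels had a lowest value of 6.23, a median of 6.78 and a highest of 8.49, and shunt levels were 6.30, 6.77 and 9.67.

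The medians of IL6 were nearly equal, and the difference in means of 0.49 ± 0.50 came with high values in shunt replicates 5 (9.67), 8 (9.64) and 6 (8.09). In the control group replicate 8 read 8.49 and replicate 7 read 7.87. For CXCL2, control levels had a lowest value of 4.85, a median of 6.21 and a highest of 7.60, and shunt levels were 5.59, 6.37 and 9.34, a difference of 0.83 ± 0.51. For CXCL8, control levels had a lowest value of 6.37, a median of 6.98 and a highest of 8.66, and shunt levels were 6.32, 7.43 and 8.45, a difference of 0.35 ± 0.36. Each of these differences depended on single lambs. IL6 was at 0.19 without shunt replicate 5 and 0.20 without shunt replicate 8, and CXCL2 at 0.50 without shunt replicate 8. CXCL8 was at 0.57 without control replicate 8, 0.22 without shunt replicate 5 and 0.23 without shunt replicate 8.

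The same 4 lambs, control replicate 8 and shunt replicates 5, 6 and 8, held the 4 highest values of IL6, CXCL2, CXCL8, CCL2 and CXCL5. This pattern was defined by the 4 highest lambs of IL6, was chosen after the values were seen and carries no test. It held for 5 of 65 members (7.69%) and for 0.317% of all genes, 29 in number. IL6 is counted in both shares by that definition, so they are only a description. Among the other 24 genes with these 4 lambs on top were the endotoxin co-receptor CD14 and the pentraxin PTX3. So were the tumour necrosis factor receptor TNFRSF1A, the interleukin-1 receptor IL1R1, the metallothioneins MT1A and MT2A, and CHUK, a kinase of the NF-kappaB pathway. The rest were ADAMTS4, BZW1, CH25H, DCLK1, GTPBP4, HSDL2, LPAR4, LRRC8C, MED4, MMRN1, NOCT, NUP153, SAV1, SRSF3, TFB2M, TOP1 and UAP1. The genes described first were picked from the 24 and do not stand for all of them. Shunt replicate 8 had CXCL2 at 9.34, CCL2 at 8.96 and PTX3 at 10.08. CXCL10 did not share the order, with its highest value in shunt replicate 2 (7.58) and its lowest in shunt replicate 5 (5.50). As 3 of these 4 lambs had a shunt, the differences of CCL2 and CXCL5 include them. For CCL2 the 4 lambs were hardly set apart, with control replicate 8 at 8.81 and shunt replicate 2 next below at 8.78.

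Among receptors of these ligands, CXCR1, which binds CXCL8, was at -0.20 ± 0.16, and IL6R was at 0.34 ± 0.10 or -0.09 ± 0.08 by probe set. The receptor genes CXCR2, CCR2 and IL6ST were looked for but not measured, so the receptor side of these ligands is incomplete. The negative feedback gene SOCS3, a common target of IL-6 signalling, was at -0.03 ± 0.07 but dim, at a mean of 5.35. STAT3, the factor that IL-6 activates, was at 0.12 ± 0.11.

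Levels were also compared in genes that carry these signals but lie outside the symbols above. None of 52 measured genes in 4 lists passed at an adjusted p under 0.05. Of 15 atypical chemokine receptors and other cytokines, 5 were at an unadjusted p under 0.05 (33.3%, against 14.5% of all genes), 2 of them higher and 3 lower. The erythrocyte and venular chemokine receptor ACKR1 was at 0.16 ± 0.07 and CSF2RB, the shared beta chain of the GM-CSF, IL-3 and IL-5 receptors, at 0.22 ± 0.08. The chemokine scavenger ACKR2 was at -0.12 ± 0.05, XCL1 at -0.13 ± 0.06 and EBI3 at -0.14 ± 0.07. ACKR3, the second receptor of CXCL12, was at 0.15 ± 0.11.

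Among JAK, STAT and SOCS relays 1 of 14 was higher at an unadjusted p under 0.05, SOCS2 (0.16 ± 0.07), and JAK1 was at 0.09 ± 0.05. Among relays of chemokine receptors, GRK5 was higher (0.15 ± 0.06) and the G protein subunit GNAI1 lower (-0.30 ± 0.11) at an unadjusted p, of 14 measured. The NF-kappaB genes had 0 of 9 at that level by limma, with NFKBIA at 0.07 ± 0.12 and RELA at 0.08 ± 0.05. List medians were 0.021, 0.015, 0.019 and 0.05 in this order, against -0.01 for all genes.

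In whole lung, fewer cells of a type and less RNA per cell cannot be told apart. Endothelial markers, 6 of 8 higher and 4 of these at an unadjusted p under 0.05, had mean log2 levels from 9.50 to 9.71 in control and from 9.61 to 9.88 in shunt. They lie beside the higher values of CXCL12, IL6R and IL13RA1, and their part in those was not tested. Macrophage and monocyte markers, 4 of 8 higher with a median difference of -0.0072, ran from 8.49 to 9.10 and from 8.64 to 9.29 beside CCL2. Within this list the ends were MSR1 at 0.50 ± 0.15 and CD14 at 0.42 ± 0.15, and C1QB at -0.21 ± 0.13 and C1QA at -0.17 ± 0.14. T cell markers, 9 of 12 lower, ran from 7.46 to 7.61 and from 7.32 to 7.50 beside IL21R. Natural killer and cytotoxic markers, 5 of 7 lower, ran from 6.11 to 6.47 and from 6.11 to 6.28 beside CCL3. In the latter list 1 marker was higher and 2 were lower at an unadjusted p under 0.05. The smallest p was that of KLRB1, higher at 0.19 ± 0.06 but dim, at a mean of 4.33.

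Neutrophil markers, 8 of 8 lower with 3 at an unadjusted p under 0.05, ran from 6.635 to 7.14 and from 6.50 to 6.95 beside CXCR1. Epithelial markers, 9 of 9 lower with 5 at that level, ran from 10.93 to 11.18 and from 10.80 to 11.13 beside IL22RA1 and CXCL17. B cell markers, 3 of 5 lower, lymphatic markers, 3 of 3 lower, and pan-leukocyte markers, 3 of 6 lower, had median differences of -0.03, -0.10 and -0.02. The part of these cell types in the members' differences was not tested, and no marker reads 0 on this scale. Of the dendritic markers 1 of 8 was measured, LAMP3 at -0.06 ± 0.11.

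Some members lie next to each other in the genome. In the RefSeq gene table of sheep (ARS-UI_Ramb_v3.0) 55 of 65 members were matched, and members with at most 5 protein-coding genes between them were taken as neighbours. Those not matched by symbol were CCL2, CCL3, CCL4, CCL8, CCL11, CCL14, CXCL2, CXCL3, CXCL5 and CXCR1. Their neighbours could not be looked up, so the groups below are incomplete for chemokines. The differences were 0.0068 and -0.19 for the receptors IL4R and IL21R, -0.29 and 0.07 for CXCL10 and CXCL11, and 0.06 and -0.09 for the T cell cytokines IL21 and IL2. CCL19 and CCL21, ligands of one receptor, were at 0.06 and 0.36, and the receptor chains IL23R and IL12RB2 at 0.08 and 0.02. The type 2 cytokines IL4, IL13 and IL5 were at -0.10, -0.05 and 0.03, and the chemokine receptors CCR3, CXCR6 and CCR9 at -0.04, -0.08 and -0.10. Neighbours thus had the same sign in some groups and opposite signs in others, by values with no test of the differences between them.

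**Figure D3:**
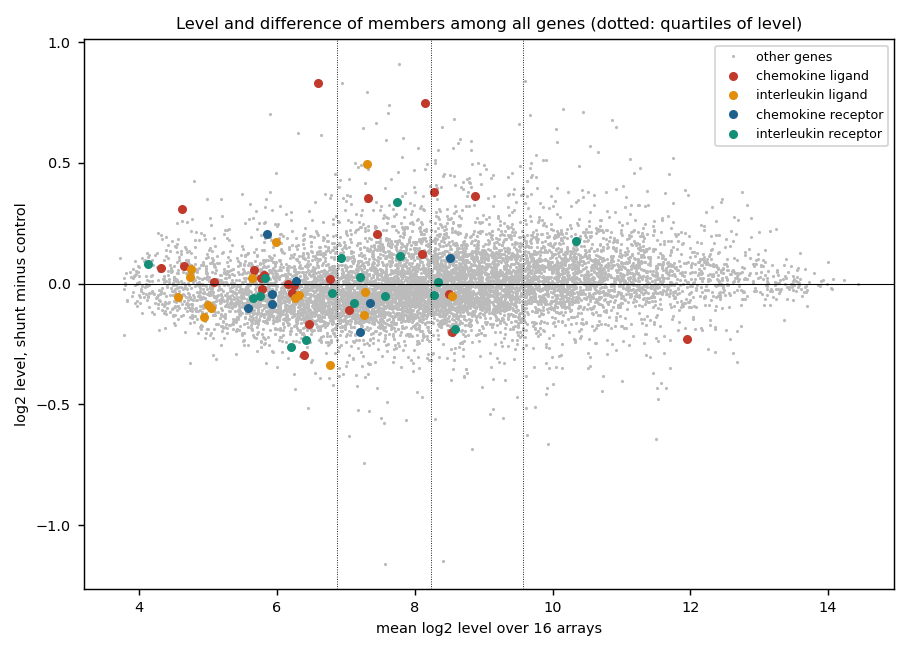
Difference in log2 level, shunt minus control (y axis), against the mean log2 level over 16 arrays (x axis) for all 9155 genes in grey and the 65 members in colour by role. Most members, 38 of 65, lie left of the lowest dotted quartile line, and CXCL2 and CCL2 have the highest differences among members.

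The differences of all genes moved with level, and the medians of the members did not follow that order. In the dimmest 25% of genes the median difference was -0.04, with 1522 of 2288 genes lower, and in the next steps of 25% it was -0.03, -0.0044 and 0.02. The 38 members of the dimmest 25% had a median of -0.01 and 5 of them were at an unadjusted p under 0.05 (13.2%, against 14.2% of all genes at such levels). In the next 25% of genes by level the median of 16 members was 0.07, and 3 were at that level of p (18.8%, against 15.9%). In the 25% above it the median of 9 members was -0.04, and 3 were (33.3%, against 13.0%). The 2 brightest members had a median of -0.03, and 1 of them, IL13RA1, was (against 15.2%).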

How the data were processed

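Lung RNA of 16 lambs was measured on Affymetrix bovine arrays, 1 array a lamb. The authors deposited log2 values from RMA (per the submitters' processing notes; version not given in the sources used here), a method that corrects background, normalizes by quantiles and summarizes each probe set. The number of arrays limits the precision.

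Of 24128 rows, 112 control probe sets were left out. Of the other 24016, 13292 had 1 gene symbol, 86 several and 10638 none. The deposited log2 values of 9155 genes were fitted in limma 3.58.1 under R 4.3.3 (lmFit, eBayes, no covariate, two-sided, Benjamini-Hochberg over all genes, threshold 0.05), checked on simulated data. Differences are shunt minus control with the SE of the fit. Exact tests used all 12870 divisions of the lambs. The labels name no animal, so p-values may measure only the spread between arrays.

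Members, roles and lists were chosen with earlier results of these data known. Members at an unadjusted p under 0.05 were named because of that p, so their differences were selected. The 6 brightest ligands and receptors and 14 measured genes of a list of 22 were named whatever their values. Not measured from that list were CXCR2, CCR2, CCR7, CX3CL1, CX3CR1, IL6ST, IL7R and IL17RD. CXCL2, CXCL10 and the genes sharing the highest lambs were named after their values were seen. The lambs were treated as unpaired. Of 8 same-numbered pairs 2 correlated above 0.1, which cannot show whether the replicate numbers pair lambs. Alternatives are in the closing section. Plots came from Python 3.11.15 and matplotlib 3.10.9.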

Additional observations from a re-analysis of the deposited data

Results flagged for a closer look

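Of 48 sets of values (24 named members in 2 groups of 8 lambs), 3 had a single lamb far from the others by Dixon's ratio, the distance to the next value divided by the range of the 8. Chance gives about 2.4. Control replicate 2 had IL22RA1 at 7.103 against 6.003 to 6.374 in the other control lambs (ratio 0.663) and IL12B at 5.326 against 4.875 to 5.049 (ratio 0.616). Shunt replicate 8 had IL22RA1 at 6.198 against 5.999 to 6.084 in the other shunt lambs (ratio 0.574).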

How the results depend on the processing

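No member passed at an adjusted p under 0.05 in any of 10 other settings of the limma fit, in 16 fits with 1 array left out, or at a threshold of 0.10, and 12 had an unadjusted p under 0.05 in the fit as reported. The replicate block (replicate numbers fitted as a block, their pairing not known) also gave 0 members and 0 of 9155 genes. In it 11 of the 12 members were still at an unadjusted p under 0.05. Without the dimmest 25% of genes 14 ligands and 13 receptors were left. Among them 2 ligands were higher and 1 lower at that level, and 3 receptors were higher and 1 lower. Of the 12 members 7 were still tested, and all 7 kept that level. When all probe sets of a gene were averaged, 1 receptor was higher. With 1 array left out, ligands ran from 3 to 6 higher and from 2 to 4 lower, receptors from 2 to 3 higher and from 1 to 3 lower, and medians from -0.014 to 0.019 for ligands and from -0.047 to -0.024 for receptors. Leaving out shunt replicate 5 or control replicate 2 or 3 gave 1 lower receptor. CCL2, CXCL12, CCL3, IL12A, IL6R, IL13RA1 and IL22RA1 kept an unadjusted p under 0.05 in 16 of 16 such fits, CXCL5 in 14, IL21R in 13, IL15 in 11, and IL1RAP and IL12B in 6 each. In the other settings IL6R lost that level when its probe sets were averaged (0.1231), CCL3 with its most variable probe set (-0.2305), IL1RAP in 4 of 10 and IL12B in 6 of 9. CCL21 was 0.5376 with array weights. Of all genes 23 passed with array weights, against 8 in the fit as reported. That number was 7 to 9 when shunt replicate 7 or control replicate 4 or 8 was left out, 13 for control replicate 6, 64 for shunt replicate 1, and 2 to 5 for the other 11 arrays. IL4R turned to -0.03194 with array weights and -0.04525 when its probe sets were averaged, and ran from -0.057 to 0.073 with 1 array left out. CXCR4 ran from -0.011 to 0.198. The causes were not tested. With each array centred on its median, the median over all genes moved from -0.014 to 0.0095, and at an unadjusted p under 0.05 9.27% of genes were higher, 4.89% lower. Signal over background is unknown, which limits the dim members most.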
